A study of Homo sapiens with 4 samples.

Results

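The AP-1 and EGR transcription factors examined here were 10 genes, namely FOS, FOSB, FOSL1 and FOSL2 of the FOS family, JUN, JUNB and JUND of the JUN family, ATF3, and the zinc finger genes EGR1 and EGR3. They were chosen by name, with earlier results of these data known. Every array probe whose transcript belongs to one of these genes was taken, which gave 13 of 34127 probes and 10 of 27708 gene names. ATF3 had 4 probes and each of the other genes had 1. Expression was measured in Ca9-22, an established human line that came from a gingival squamous cell carcinoma, on Agilent 1-color whole genome arrays. Control 1 and control 2 were negative control cultures, and KPNA4 knockdown 1 and 2 were cultures in which KPNA4, which encodes the nuclear import receptor karyopherin-α4, was silenced. All 4 cultures were grown in medium with 10% serum and received a silencing or control reagent, and RNA was taken 3 days after transfection. The sample labels call the reagent siRNA and number the cultures as replicates, whereas the study describes short hairpin RNAs, and whether both knockdown cultures received the same silencing sequence is not settled by these sources. The comparison asks which of these genes differed between cultures with normal and with reduced KPNA4, and the design text calls the 2 cultures of each group biological replicates.

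AP-1 is a dimer of leucine zipper proteins in which a JUN protein pairs with another JUN, a FOS protein or an ATF protein, and it binds short palindromic DNA sites. EGR proteins bind GC-rich sites through zinc fingers. Many of these genes are immediate early genes, which growth factors and stress switch on within minutes through ERK, JNK and p38 kinases, and in squamous epithelium AP-1 takes part in the control of keratins, cornified envelope genes, matrix metalloproteinases and cytokines.

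Promoters were taken from the RefSeq promoter table. Those of the 5 searched genes that passed the test below are shown because 2 short sites recur among them. Each runs from 250 bases before to 50 bases after the start of transcription on GRCh38.p14, 5′ to 3′ on the strand of the gene. Capitals mark matches on either strand to TGACGT, which lies within the cAMP response element TGACGTCA, to TGACATCA, to TGANTCA, the classical AP-1 site, and to the CArG box bound by serum response factor.
FOS promoter, chr14:75278578-75278877, plus strand: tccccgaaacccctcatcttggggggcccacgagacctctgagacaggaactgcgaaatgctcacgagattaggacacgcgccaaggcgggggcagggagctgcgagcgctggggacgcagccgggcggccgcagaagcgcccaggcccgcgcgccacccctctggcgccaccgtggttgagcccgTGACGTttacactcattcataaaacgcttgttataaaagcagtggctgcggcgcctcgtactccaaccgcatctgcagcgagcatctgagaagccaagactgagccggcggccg
JUN promoter, chr1:58783998-58784297, minus strand: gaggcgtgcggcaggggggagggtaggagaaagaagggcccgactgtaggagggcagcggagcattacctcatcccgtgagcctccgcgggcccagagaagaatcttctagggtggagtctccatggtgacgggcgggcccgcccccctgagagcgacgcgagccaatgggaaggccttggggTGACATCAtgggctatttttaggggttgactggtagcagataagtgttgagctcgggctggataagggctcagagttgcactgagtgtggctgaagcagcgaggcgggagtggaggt
JUND promoter, chr19:18281573-18281872, minus strand: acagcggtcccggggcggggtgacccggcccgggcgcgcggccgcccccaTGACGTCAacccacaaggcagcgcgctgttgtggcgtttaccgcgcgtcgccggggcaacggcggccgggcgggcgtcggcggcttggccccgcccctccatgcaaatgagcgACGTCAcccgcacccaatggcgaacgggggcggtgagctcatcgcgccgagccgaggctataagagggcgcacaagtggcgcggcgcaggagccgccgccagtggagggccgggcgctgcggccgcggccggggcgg
ATF3 promoter, chr1:212565157-212565456, plus strand: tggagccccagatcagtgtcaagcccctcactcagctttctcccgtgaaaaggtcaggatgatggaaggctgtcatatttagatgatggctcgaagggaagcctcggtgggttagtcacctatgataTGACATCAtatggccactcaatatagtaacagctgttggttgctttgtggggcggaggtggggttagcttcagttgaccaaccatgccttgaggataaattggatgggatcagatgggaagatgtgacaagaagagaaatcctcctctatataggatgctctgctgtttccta
EGR1 promoter, chr5:138465229-138465528, plus strand: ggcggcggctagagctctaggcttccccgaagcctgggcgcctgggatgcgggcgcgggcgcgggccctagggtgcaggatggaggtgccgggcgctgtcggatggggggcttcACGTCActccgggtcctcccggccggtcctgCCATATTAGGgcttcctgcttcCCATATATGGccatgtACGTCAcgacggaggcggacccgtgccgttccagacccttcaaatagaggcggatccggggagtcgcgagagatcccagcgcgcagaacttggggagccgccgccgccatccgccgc

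FOS and EGR1 were both higher after knockdown and both hold TGACGT, FOS with 1 match starting at -64 and EGR1 with matches starting at -136 and -67 that read ACGTCA on the strand shown. JUND, which was also higher, holds the full TGACGTCA at -200, where the shorter motif matches on both strands, and a further match at -87. JUN and ATF3, which were both lower, hold TGACATCA instead, starting at -67 and -123. The table holds 2 start sites for ATF3, and the other, not shown, held none of the motifs searched. EGR1 alone among the 8 genes searched held CArG boxes in these windows, starting at -105 and -83. Sites outside the windows were not searched. Nor were promoters of EGR3, which was higher, and FOSL1, which was lower, so the motifs of these called genes are not known here. Among the other genes searched, FOSB held TGACGT at -60 and FOSL2 held it at -66 together with TGACTCA, a form of TGANTCA, at 5. Neither gene passed the test. Of 35116 promoters of this length in the table, 7.98% held TGACGT, 1.85% TGACGTCA, 2.61% TGACATCA, 7.71% TGANTCA and 1.29% a CArG box. GCGTGGGCG, an EGR site, was in 0.795% of promoters and in none of the 9 start sites of the 8 genes searched. These matches describe the letters of the windows and do not show that a site was used.

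The knockdown was seen in the targeted gene. KPNA4 measured 4.02 and 4.03 in controls and 2.36 and 2.05 after knockdown, where each value is the log2 processed signal of the probe minus the log2 75th percentile of that array. Its log2 fold change was -1.82 (SE 0.12, limma adjusted p = 0.00183). Of 15 squamous epithelial markers, all but DSC3 were well above background on both control arrays and all 15 on both knockdown arrays. Their summed level, in multiples of the array's 75th percentile, was 311 to 312 in controls and 254 to 263 after knockdown. That sum is carried by SFN, EPCAM and ITGB4, which changed by -0.28, -0.51 and -1.15 on the log2 scale, whereas 9 of the 15 markers were higher and 4 lower, with a median log2 fold change of 1.16. DSC3, among the higher markers, was tested only because it was bright after knockdown, so its call adds no support to the direction. Fibroblast markers summed to 0.144 to 0.149 and 0.331 to 0.351, with 4 of 7 well above background in each group and COL3A1 and THY1 in neither, and of the 5 tested COL1A1, COL1A2 and PDGFRB were higher and LUM lower. PDGFRB was well above background on both arrays only after knockdown, and LUM only in controls. Each was tested through that group alone, so their calls add no support to the direction. Leukocyte markers summed to 4.63 to 4.67 and 6.04 to 6.36, with 4 of 6 well above background in controls and 3 after knockdown. The higher sum is that of CD14 alone (log2 fold change 0.54), while PTPRC, CD68 and CD3E were lower, with -0.55, -1.37 and -1.48. CD3E was well above background on both arrays only in controls and was tested through them alone, so its call adds no support either. Endothelial markers summed to 0.0888 to 0.0958 and 0.0636 to 0.0671, with 2 of 4 in each group. The part of these levels in the results was not tested. HLA-DRB5 and GSTM1, genes that some human genomes lack, rose above background on both knockdown arrays but on neither control array, and a difference between the cell stocks and the knockdown cannot be told apart in this design.

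After knockdown 4 of the 10 genes were higher (FOS, JUND, EGR1 and EGR3), 3 were lower (FOSL1, JUN and ATF3), and FOSB, FOSL2 and JUNB did not pass the test, at a limma adjusted p under 0.05. Over all 19540 genes tested 20.3% were higher and 29.5% lower, 49.8% in all, so a call in itself sets no gene apart. All 10 genes passed the filter on dim probes, EGR3 only through the knockdown arrays, where it was brighter, so that it had to differ, and 3 of the higher genes were measured in both groups. The median log2 fold change was 0.22 over the 10 genes and -0.10 over all genes tested. In 5 of the 10 genes both knockdown arrays lay above both controls, beside 31.7% of all genes tested, and in 3 both lay below, beside 48.2%. Groups that did not overlap were thus seen in 8 of the 10 and in 79.9% of all genes. Changes of at least 2-fold were limited to FOSL1, which fell, and EGR3, which rose. Of all genes tested, 3.22% fell and 5.28% rose that far. With 2 arrays a group the p-values measure only the spread between these 4 cultures on 1 slide.

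**Figure D1:**
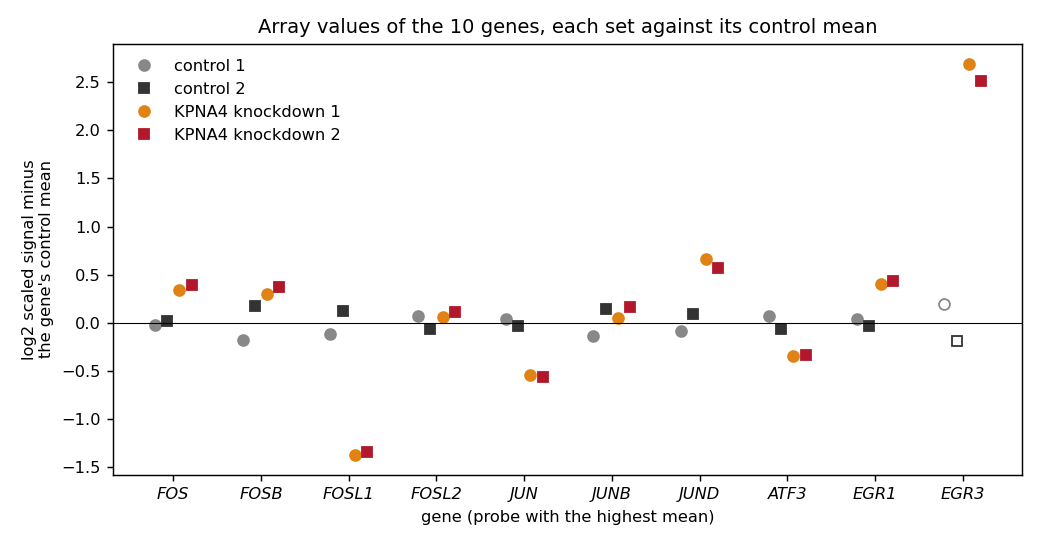
Array values of the 10 genes on a log2 scale, each set against the mean of its 2 control arrays, with circles for replicate 1, squares for replicate 2 and open symbols for arrays on which the probe was not well above background. FOSL1 lay below and EGR3 above its controls by the widest margins, while FOSL2 and JUNB overlapped their controls.

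The direction of small changes depended on the scaling between arrays. The 75th percentile of the processed signal was 1466 and 1381 in controls and 1938 and 2096 after knockdown, and without scaling the median log2 fold change of all genes moved from -0.10 to 0.40. Of the genes called, 40.8% were higher with the 75th percentile, 47.1% with quantile normalization, 37.2% with the array median, 56.8% with 5 spike-in probes and 91.5% without scaling. The spike-in probes themselves were 0.39 higher on the knockdown arrays (0.21 to 0.51 over the probes, log2), and the amounts added are not given in the sources used here. Relative to the median gene, FOSL1 changed by -1.26, JUN by -0.46, ATF3 by -0.24, FOS by 0.47, EGR1 by 0.52 and JUND by 0.72.

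**Figure D2:**
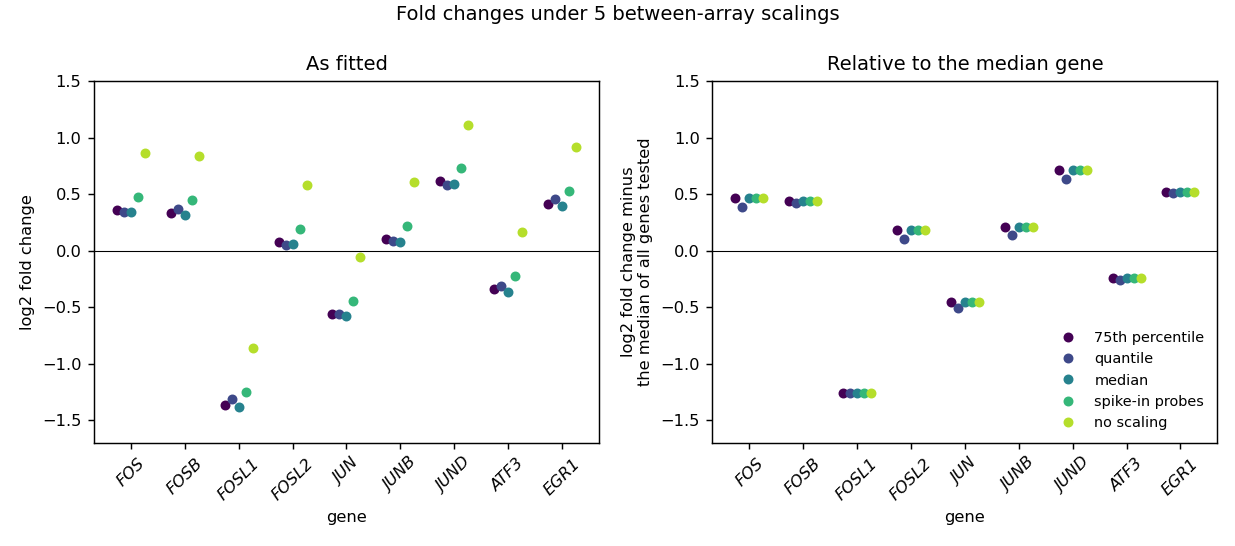
Log2 fold changes, KPNA4 knockdown over control, of the 9 genes other than EGR3 under 5 between-array scalings, as fitted (left) and after subtracting the median of all genes tested (right). Without scaling JUN moved to -0.057 and ATF3 to 0.16, whereas FOSL1 stayed at -0.86, and after the median was subtracted 4 of the scalings coincide by construction, since each shifts all genes of an array alike, so that quantile normalization alone could differ.

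In the FOS family, whose proteins pair with JUN proteins and do not form stable dimers among themselves, FOSL1 fell, FOS rose by a smaller amount, and FOSB and FOSL2 did not pass the test. FOSL1 encodes FRA1, a FOS protein without the strong transactivation domain of FOS that is abundant in many carcinoma lines. Its scaled log2 values were 2.49 and 2.72 in controls and 1.23 and 1.26 after knockdown. Both knockdown arrays lay more than 1 log2 unit below both controls. The log2 fold change was -1.36 (SE 0.10, limma adjusted p = 0.00228), or 2.57-fold lower, with 1.56% of all genes tested below it. Before scaling the processed signal was 8225 and 9129 in controls and 4538 and 5028 after knockdown, so FOSL1 was lower also where the knockdown arrays were brighter overall. Without scaling it was the only one of the 10 genes still called lower, at -0.86. In RNA from whole cultures, fewer cells with FOSL1 RNA and less of it per cell cannot be told apart.

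FOS, the founding FOS protein and an immediate early gene, had scaled log2 values of -2.45 and -2.41 in controls and of -2.10 and -2.04 after knockdown. Both knockdown arrays lay above both controls. The log2 fold change was 0.36 (SE 0.060, limma adjusted p = 0.0130). The call was lost without KPNA4 knockdown 1, where the adjusted p was 0.0710, and without KPNA4 knockdown 2, where it was 0.0986, at log2 fold changes of 0.39 and 0.34. FOSB, which encodes a FOS protein with a transactivation domain, was weak but well above background on all 4 arrays, at -5.85 and -5.49 in controls and -5.38 and -5.30 after knockdown. The knockdown arrays lay above the controls, but the controls were 0.36 apart, more than the log2 fold change of 0.33 (95% interval -0.048 to 0.72, limma adjusted p = 0.115). Leaving out control 2 gave FOSB a log2 fold change of 0.51 and an adjusted p of 0.0307. FOSL2, which encodes FRA2, had -1.87 and -2.004 in controls and -1.88 and -1.83 after knockdown. Its groups overlapped, and the log2 fold change was 0.081 (95% interval -0.12 to 0.28, limma adjusted p = 0.399).

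In the JUN family, whose proteins form AP-1 with or without a FOS partner, JUN and JUND moved in opposite directions. JUN, a target of JNK and of its own product, had scaled log2 values of -0.16 and -0.22 in controls and of -0.74 and -0.76 after knockdown. The groups were far apart beside the spread within each. The log2 fold change was -0.56 (SE 0.060, limma adjusted p = 0.00499), but it was -0.057 and not called without scaling. Before scaling the JUN signal was 1314 and 1182 in controls and 1162 and 1236 after knockdown, and these groups overlapped. JUN was thus lower in scaled and not in unscaled signal. Omitting any 1 of the 4 arrays left JUN called.

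JUND, whose protein is often growth restraining and varies little with serum, had scaled log2 values of -3.98 and -3.80 in controls and of -3.23 and -3.32 after knockdown. Both knockdown arrays lay above both controls. The log2 fold change was 0.61 (SE 0.088, limma adjusted p = 0.00938), and without KPNA4 knockdown 1 it was 0.57 at an adjusted p of 0.0555. Before scaling the signal was 93.2 and 99.2 in controls and 207 and 210 after knockdown. JUNB, which can oppose JUN at some promoters, had -1.73 and -1.45 in controls and -1.54 and -1.43 after knockdown. The groups overlapped, with a log2 fold change of 0.10 (95% interval -0.23 to 0.43, limma adjusted p = 0.503), which was -0.036 without control 1. Within an array the scaling cancels, and there JUND minus JUN rose by 1.17 on the log2 scale between the groups.

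**Figure D3:**
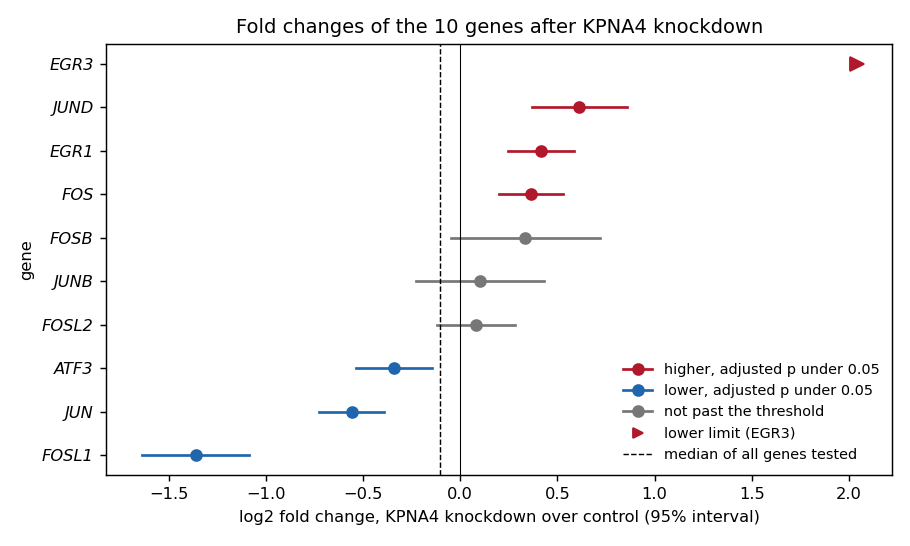
Log2 fold changes, KPNA4 knockdown over control, with 95% intervals from limma, colored by call, and the median of all genes tested as a dashed line. EGR3, not well above background in controls, is drawn at the log2 of its lower limit of 4.11-fold, and FOSL1 has the lowest value, -1.36.

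FOSL1 had the lowest log2 fold change of the set, so its difference to each of the other genes had to fall. The differences restate the fold changes above in a form that does not depend on the scaling. Within each array, FOSL1 relative to another of the 8 genes measured on all arrays fell by between 0.80, against JUN, and 1.97, against JUND, from controls to knockdown. Against FOS the change was -1.73 and against FOSL2 -1.44. The 3 named genes whose 4 array values, each centered on its control mean, lay nearest to those of FOSL1 among 14448 genes were CYP27B1, which makes active vitamin D, MMP23B, a metalloproteinase gene, and ZDHHC8BP. Their Euclidean distances to FOSL1 were 0.0693, 0.0793 and 0.0830 on the log2 scale, and their log2 fold changes were -1.36, -1.36 and -1.37. They were picked for this nearness, so fold changes like that of FOSL1 had to follow.

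ATF3, a stress-induced ATF protein that pairs with JUN proteins and often represses transcription, was lower on all 4 of its probes. On the brightest, A_23_P34915, the scaled log2 values were 1.102 and 0.971 in controls and 0.69 and 0.70 after knockdown. Both knockdown arrays lay below both controls. The log2 fold change was -0.34 (SE 0.071, limma adjusted p = 0.0230), and without scaling it turned to 0.16 and was not called. The unscaled signal was 3146 and 2708 in controls and 3135 and 3401 after knockdown, with overlapping groups.

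The other ATF3 probes gave much the same size of change. Probe A_24_P33895 had scaled log2 values of -3.95 and -4.05 in controls and -4.46 and -4.32 after knockdown. Probe A_33_P3214096 had -3.10 and -2.98 against -3.39 and -3.39, and probe A_33_P3214105 had -3.20 and -3.06 against -3.51 and -3.56. On no probe did the groups overlap. The log2 fold changes were -0.39, -0.35 and -0.41, and in a fit over all 24185 probes, of which 48.4% were called, the 4 ATF3 probes had limma adjusted p-values of 0.0239, 0.0235, 0.0215 and 0.0171. The probes read the same 4 RNA samples and are no replicates of the knockdown. The call for ATF3 was lost without control 1 (log2 fold change -0.27, adjusted p = 0.0508), without KPNA4 knockdown 1 (-0.34, 0.116) and without KPNA4 knockdown 2 (-0.34, 0.119), and with the spike-in scaling the log2 fold change was -0.23 and was not called.

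**Figure D4:**
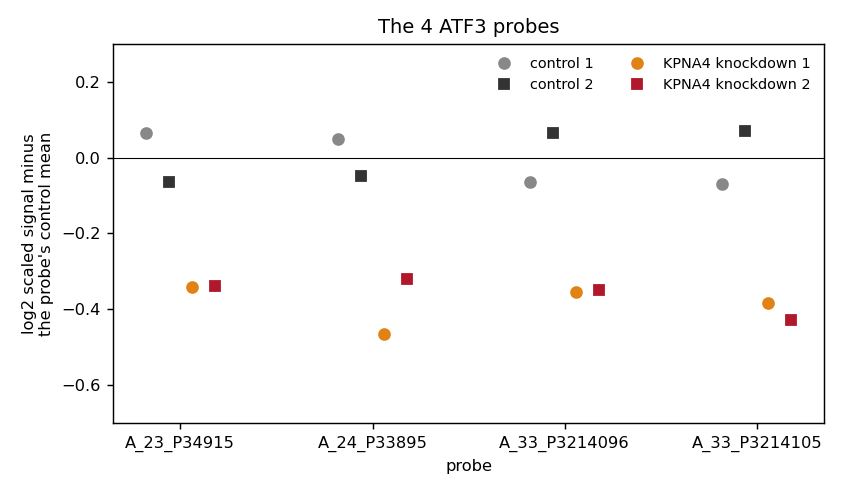
Scaled log2 signal of the 4 ATF3 probes on each array, set against the mean of the probe's 2 control arrays. On all 4 probes both knockdown arrays lay below both controls under the 75th percentile scaling, by -0.34 to -0.41 on average.

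Both EGR genes were higher after knockdown. EGR1, an immediate early zinc finger factor downstream of ERK and serum response factor, had scaled log2 values of 1.22 and 1.15 in controls and of 1.58 and 1.61 after knockdown. Both knockdown arrays lay above both controls, by more than the gap between replicates of either group. The log2 fold change was 0.41 (SE 0.062, limma adjusted p = 0.0103), and the call was lost without KPNA4 knockdown 1 (0.43, adjusted p = 0.0650) and without KPNA4 knockdown 2 (0.40, adjusted p = 0.0774). The unscaled signal was 3419 and 3058 in controls and 5810 and 6412 after knockdown.

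EGR3, a related factor that EGR1 and growth factor signals can induce, was at the edge of detection. Its processed signal was 6.82 and 4.91 in controls, where it was not well above background, and 51.0 and 48.6 after knockdown, where it was. The scaled log2 values were -7.75 and -8.14 in controls and -5.25 and -5.43 after knockdown. Against the limit described below, EGR3 was 4.11-fold higher after knockdown (limma adjusted p of the fit 0.00163). EGR3 entered the test only because it was bright after knockdown, so its call and adjusted p add no support to the direction. The limit sets the knockdown mean against the lowest signal of any probe that counted as well above background on each control array. Some brighter probes did not count, so it is not a strict bound for this probe.

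The other leucine zipper genes and EGR relatives were mixed. Of 42 other bZIP genes 38 were measured, with 10 higher (26.3%), 8 lower (21.1%) and a median log2 fold change of -0.036. Over all genes tested 20.3% were higher and 29.5% lower, with a median of -0.10. With probes well above background on all 4 arrays, 8 of these bZIP genes were higher and 8 lower. With any 1 array left out the count of lower bZIP genes was smaller. With either knockdown array left out so was that of higher ones, as were both counts over all genes tested. With the spike-in scaling the bZIP counts were 9 and 2. CEBPA, a factor of epithelial differentiation, rose from -2.49 and -2.44 to -0.23 and -0.18, and changed by 2.26 on the log2 scale (limma adjusted p = 4.076e-04). BACH2, a repressor related to the AP-1 proteins, was not well above background in controls and was 3.51-fold higher against the limit used for EGR3. BATF, a partner of JUN proteins in lymphocytes, changed by 1.59 with 1 of 2 control arrays well above background. Both passed the filter only through the knockdown arrays, so their calls add no support to the direction. MAFF, CREB3L1 and MAFG, of the small MAF and CREB groups, changed by -0.76, -0.74 and -0.51. The JUN partners ATF2 and JDP2 had log2 fold changes of -0.031 and -0.14 and did not pass the test. Of 4 measured EGR relatives and NAB corepressors, EGR4 was higher, by 1.90-fold against such a limit, with neither control array well above background. EGR4 too passed the filter only through the knockdown arrays. With probes well above background on all 4 arrays, 0 of these relatives were higher. EGR2 had 0.27 with overlapping groups, and the corepressor genes NAB1 and NAB2 had -0.088 and 0.19. Without control 2 there were 2 higher among these relatives.

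The inputs to AP-1 and EGR transcription were likewise mixed. Of 6 measured genes for serum response factor and its cofactors, MRTFB rose by 0.30, ELK3 and ELK4, ternary complex factors that ERK phosphorylates, changed by -0.98 and -0.37, and SRF itself had 0.0030 with overlapping groups. Fewer of these genes were called with either knockdown array or control 1 left out, and so were fewer of all genes tested. Of 27 measured JNK and p38 pathway genes, 4 were higher (14.8%) and 7 lower (25.9%), with a median log2 fold change of -0.022. Of all genes tested 20.3% were higher and 29.5% lower. Both counts of pathway genes were smaller with either knockdown array left out, as were those over all genes tested. With either control left out the count of lower genes was smaller. The counts were 4 and 1 with the spike-in scaling. MAPK10, the JNK gene best known in neurons, rose by 1.35 and MAP2K6, a p38 activator, by 1.09. MAP2K7, which activates JNK, changed by -0.81 and MAP2K3, which activates p38, by -0.46. MAPK14, which encodes p38α, had -0.22 and an adjusted p of 0.0526. Of 30 other measured immediate early genes 12 were higher (40%) and 7 lower (23.3%), beside the same 20.3% and 29.5%, with a median of 0.15. Both counts of immediate early genes were smaller with either knockdown array left out, as were those over all genes tested. ID2 and ID3, inhibitors of helix-loop-helix factors, rose by 1.13 and 0.86 and RHOB by 1.06, while IER3, GADD45A and DUSP1, which encodes a phosphatase of MAP kinases, changed by -0.97, -0.80 and -0.60.

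Genes reported elsewhere as AP-1 targets moved in both directions. Of 33 measured, 12 were higher (36.4%) and 13 lower (39.4%), beside 20.3% and 29.5% of all genes tested. Their median log2 fold change was -0.21, beside -0.10 over all genes tested. On fitted values 7 fell and 7 rose by at least 2-fold, beside 3.22% and 5.28% of all genes tested, with MMP13 among the latter 7 only by its fitted value. KRT6A, a keratin of activated epithelium that is also among the squamous markers, rose from -5.44 and -5.39 to 1.51 and 1.53, or by 6.94 on the log2 scale (limma adjusted p = 1.779e-04). SPRR1B, a cornified envelope gene, rose by 4.35. The collagenase gene MMP13, not well above background in controls, was 1.51-fold higher against the limit used for EGR3. MMP13 passed the filter only through the knockdown arrays. With probes well above background on all 4 arrays, 11 of the reported AP-1 targets were higher. MMP3, which encodes stromelysin-1, went from 4.36 and 4.31 to 1.16 and 1.24, and changed by -3.14 on the log2 scale (limma adjusted p = 3.045e-04), and the cytokine genes IL6 and IL1A changed by -2.63 and -2.35. Of 11 measured genes reported as EGR targets 6 were higher (54.5%) and 3 lower (27.3%), beside 20.3% and 29.5% of all genes tested. Their median was 0.35, beside -0.10 over all genes tested. PTGES, a prostaglandin synthase gene, rose by 1.26, THBS1 by 1.11 and F3, the tissue factor gene, by 0.85, while ICAM1, PDGFB and SOD1 changed by -1.08, -0.76 and -0.54.

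**Figure D5:**
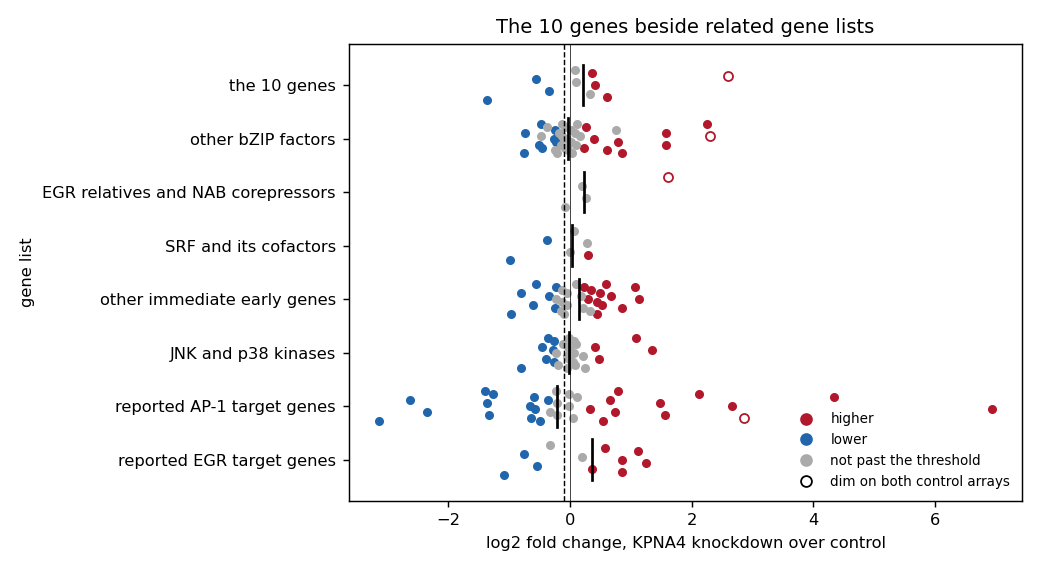
Fitted log2 fold changes, KPNA4 knockdown over control, of the 10 genes and of the measured genes of 7 related lists, colored by call, with a bar at the median of each list, a dashed line at the median of all genes tested and open circles for genes dim on both control arrays, whose fitted value is not a fold. The 10 genes lie mostly within 1 of 0, as do the other immediate early genes, whereas the reported AP-1 targets run from -3.14 for MMP3 to 6.94 for KRT6A.

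Over these 7 lists and the heat shock genes together, 160 genes were measured, of which 31.9% were higher, beside 20.3% of all genes tested, and 28.1% lower, beside 29.5%. The lists were chosen by hand, and no test was made of the difference in the share of higher genes. The lists share some genes with each other, and other factors also act on the listed targets, so their values describe the surroundings of the 10 genes and test no activity of the proteins.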

How the data were processed

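Total RNA of 4 Ca9-22 cultures, 2 control and 2 KPNA4 knockdown by the sample labels, was hybridized to 1-color arrays on 1 slide. The authors deposited each array's output of Agilent Feature Extraction 11.0.1.1, with a processed signal intensity that is corrected for background and not scaled between arrays. They also deposited a table of ratios, the processed signal over the array's 75th percentile, used only as an alternative, as were the deposited median and background intensities.

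Control spots were left out, as were outlier spots (333 to 355 of the 43118 gene spots per array), and the log2 intensity was set against each array's 75th percentile. Well above background were 70.2% to 71.0% of probes. A probe was kept if both arrays of either group showed it well above background, a gene was given by its brightest probe, and 25771 of 34127 probes were named through RefSeq (GRCh38.p14). The 19540 genes were tested with limma 3.58.1 (R 4.3.3, lmFit and eBayes, Benjamini-Hochberg adjustment over all genes, two-sided), and intervals are at 95%. The procedure was tested on simulated data in which few genes changed and the arrays did not differ in brightness. Unlike these arrays in both respects, the simulated data do not test the scaling. The number of arrays limits the precision, and an exact permutation of 2 against 2 cannot give a p below 0.333.

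Named were all 10 genes with every probe, KPNA4, up to 3 called changes in each direction of each list, and the 3 genes nearest to any of the 10 with at least a 2-fold change measured on all arrays. ATF2, JDP2, EGR2, NAB1, NAB2, SRF, MAPK14, HLA-DRB5 and GSTM1 were named outside this rule after their values were seen. The 10 genes and the lists were chosen with earlier results of these data known. Alternatives were 4 other scalings (spike-in scaling was chosen after seeing the data), normexp background correction (offset 50), the deposited ratios, a looser and a stricter filter on dim probes, averaging a gene's probes, trend and robust moderation, the replicate number as a block, an adjusted p under 0.01 and each array left out.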

Additional observations from a re-analysis of the deposited data

How the results depend on the processing

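Under the alternatives run, FOSL1 stayed below 0 and FOS, EGR1 and JUND above 0. With normexp background correction no gene was called, 0 of all genes (1149 at an unadjusted p under 0.05) and 0 of the 10 and of the related genes in either direction. The limma adjusted p was then 0.648 for each of the 10 genes. The log2 fold changes were -1.47 for FOSL1, -0.38 for JUN, -0.37 for ATF3, 0.25 for EGR1 and 0.33 for JUNB. They were 0.41 for FOSL2, 0.78 for FOS, 1.17 for JUND, 1.27 for FOSB and 1.71 for EGR3. The correction turned 3 ATF3 probes, A_24_P33895 to 0.75, A_33_P3214096 to 0.47 and A_33_P3214105 to 0.60, none called, and the cause was not tested. Without scaling 7 of the 10 genes were higher and 1 lower, with FOSB at 0.84, FOSL2 at 0.58 and JUNB at 0.61 now called, JUN at -0.057 not called and ATF3 turned to 0.16 (its other probes 0.11, 0.15 and 0.096). All these values rose because each array's 75th percentile was no longer subtracted. Of the 160 related genes 106 were then higher and 11 lower. With the spike-in scaling FOSB, at 0.45, was called, ATF3, at -0.23, was not, and 22 related genes were lower. Without a filter on dim probes ATF3 kept its value of -0.34 at an adjusted p of 0.0549. At an adjusted p under 0.01, EGR3, JUND, FOSL1 and JUN stayed called, 2 higher and 2 lower, while FOS (0.36), EGR1 (0.41) and ATF3 (-0.34) did not, and 31 related genes were higher and 23 lower.

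With each array left out in turn, 1 to 5 of the 10 genes were higher and 2 or 3 lower, the fewest higher without KPNA4 knockdown 1 (EGR3 alone) and KPNA4 knockdown 2 (EGR3 and JUND). Of the related genes 28 to 45 were higher and 21 to 34 lower. The log2 fold changes ran from -0.41 to -0.27 for ATF3, 0.38 to 0.45 for EGR1, 0.34 to 0.39 for FOS, 0.16 to 0.51 for FOSB, 0.53 to 0.70 for JUND, -1.48 to -1.24 for FOSL1 and -0.036 to 0.24 for JUNB, which was below 0 without control 1. The counts over all genes were 3974 higher and 5764 lower, 11256 and 1046 without scaling, 3648 and 2773 with the spike-in scaling, 3060 and 4289 without a filter, 2133 and 2341 at an adjusted p under 0.01, and 2072 and 2218 without KPNA4 knockdown 2 and 2136 and 2804 without KPNA4 knockdown 1. Deviations of same-numbered arrays from their group means correlated at -0.034 over genes. With 2 arrays a group this value cannot show whether same-numbered cultures were prepared together. With the replicate number as a block the same 4 and 3 genes were called, with ATF3 at -0.34 (adjusted p = 0.0491) and FOSL1 at -1.36 (adjusted p = 0.00626), and 3262 genes were higher and 4637 lower.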

Other observations

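Heat shock genes, chaperones and their cofactors that like ATF3 respond to proteotoxic stress, moved in both directions. All 13 were measured, with 5 higher, 5 lower and a median log2 fold change of -0.069, beside 20.3% higher and 29.5% lower among all genes tested. Both counts of heat shock genes were smaller with any 1 array left out, as were those over all genes tested. HSPB1, a small heat shock protein gene, rose from 4.76 and 4.94 to 6.23 and 6.07, or by 1.30 on the log2 scale (limma adjusted p = 0.00252). HSPA6 and HSPA1L, members of the HSP70 family, rose by 0.65 and 0.56. BAG3, a cochaperone gene, changed by -0.61, and HSPD1 and HSPA8, which encode abundant chaperones of the mitochondrion and the cytosol, changed by -0.51 and -0.47.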
